A study of Homo sapiens with 6 samples.

Results

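TRIB3, DDIT4 and SESN2 encode stress-induced inhibitors of the growth signals that run through the kinase AKT and the kinase complex mTORC1. The 3 genes were taken by name out of 14884 genes with a named array feature, and each has 1 named feature. The rule did not use their values, but earlier results of these data were known when the genes were chosen. Transcripts were profiled on 6 Affymetrix arrays in MOLM14, a human cell line from an acute myeloid leukaemia with monocytic features, which has an internal tandem duplication of FLT3 and a KMT2A-MLLT3 fusion. All cells were electroporated with siRNA at 70 nM: 3 samples received siRNA against ATF4 (siATF4) and 3 a control siRNA (siCTRL), which the labels call scrambled in 1 place and a non-targeting pool in another. The untreated line, the time from transfection to harvest and the level of any protein were not part of the labels or files, so the comparison is of transcripts after 1 siRNA reagent against 1 control reagent in 1 cell line. Since technical replicates is the labels' term for the 3 samples of a group, the spread behind each p-value may be technical, and it covers these samples alone.

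In the integrated stress response, whose main transcription factor is ATF4, shortage of amino acids or stress of the endoplasmic reticulum slows translation through the initiation factor eIF2. TRIB3, DDIT4 and SESN2 are well-known genes of that response, and each holds growth back at a separate place. TRIB3 is a pseudokinase that binds AKT. DDIT4 (also called REDD1) acts through the TSC complex to switch off the small GTPase RHEB that activates mTORC1. SESN2 senses leucine and restrains GATOR2, part of the GATOR machinery that tells mTORC1 of amino acids at the lysosome. DDIT4 is also induced by hypoxia and glucocorticoids, and SESN2 by p53 and by NRF2, so the genes share ATF4 but not all of their other inputs.

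Levels are log2 values, and differences are siATF4 minus siCTRL on that scale, so that a difference of -1 is a level halved. Array medians lay between 3.88 and 3.96. The siATF4 replicate 1 array stood apart from the others: 133 genes there were at least 1 log2 unit below all 5 other arrays and 133 at least 1 unit above, where no other array had more than 1 gene below and 10 above. Among these genes MPO, the granule enzyme myeloperoxidase, read 5.58 there against 8.45 to 10.4 elsewhere, and the monocyte receptor gene CSF1R read 8.18 against 5.05 to 6.57. Of 15 myeloid leukaemia markers 9 had a named feature, with a mean level of 7.62, 7.43 and 6.58 on siATF4 replicates 1, 2 and 3 and of 7.70, 7.36 and 6.58 on the siCTRL replicates. FLT3 (8.19 to 9.67) and the lysozyme gene LYZ (8.33 to 10.9) were well above the array medians on every array, and the monocyte marker CD14 (3.22 to 4.18) was near them. Of markers of other lineages, 7 T and NK, 4 B, 5 erythroid and megakaryocyte and 7 epithelial and fibroblast genes had a feature, with list means of 4.66 to 4.96, 3.58 to 4.34, 3.94 to 4.01 and 4.72 to 5.0. Single members of these lists were well above the array medians, such as NKG7 (6.61 to 7.62), KRT18 (6.11 to 7.40) and VIM (7.86 to 8.69). Others, such as EBF1 (3.51 to 3.71), were under them. TRIB3, DDIT4 and SESN2 are therefore given with all arrays and without siATF4 replicate 1.

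Of 14884 genes, 0% reached an adjusted p below 0.05 in limma in either direction, and 218 (1.46%) had an unadjusted p below 0.05. With the replicate number as a block those figures were 0% and 464 genes (3.12%), of which 139 (0.934% of all genes) were lower with siATF4. For the targeted gene all siATF4 arrays were below all siCTRL arrays, as for 2.59% of all genes. ATF4 read 7.72, 7.88 and 8.14 under siATF4 against 8.67, 8.64 and 8.85 under siCTRL, a log2 difference of -0.80 (SE 0.14) that leaves 57.4% of the control level, and -0.71 without siATF4 replicate 1. The number of arrays limits the precision, with a median SE of 0.15 over all genes.

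The DNA just upstream of the 3 genes is shown because ATF4 binds such regions at a composite C/EBP-ATF element. The windows cover the 250 bases before the start of each gene in RefSeq on GRCh38.p14, 5′ to 3′ on the strand of the gene, which is the plus strand for all 3: chr20:381045-381294 for TRIB3 (the most upstream of 3 starts), chr10:72273674-72273923 for DDIT4 and chr1:28259268-28259517 for SESN2. Capitals mark the letters ACGTG, the core of a hypoxia response element, and ATTGG, which is a CCAAT box on the other strand.
TRIB3: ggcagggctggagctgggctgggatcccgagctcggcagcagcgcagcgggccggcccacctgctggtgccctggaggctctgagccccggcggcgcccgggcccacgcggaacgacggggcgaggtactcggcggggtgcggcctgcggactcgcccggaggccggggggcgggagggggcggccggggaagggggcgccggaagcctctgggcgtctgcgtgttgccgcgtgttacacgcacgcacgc
DDIT4: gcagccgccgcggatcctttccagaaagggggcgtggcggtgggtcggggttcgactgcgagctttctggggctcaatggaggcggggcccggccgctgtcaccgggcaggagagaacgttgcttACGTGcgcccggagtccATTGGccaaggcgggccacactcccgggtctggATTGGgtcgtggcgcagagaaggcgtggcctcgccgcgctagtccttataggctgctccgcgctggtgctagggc
SESN2: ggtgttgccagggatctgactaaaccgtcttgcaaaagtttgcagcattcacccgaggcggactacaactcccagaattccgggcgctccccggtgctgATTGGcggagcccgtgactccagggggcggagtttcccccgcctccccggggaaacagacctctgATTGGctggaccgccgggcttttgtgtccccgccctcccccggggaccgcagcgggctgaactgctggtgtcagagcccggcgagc
The element TGATGNAAN, searched on both strands with N as any base, had no match in these windows, nor in those of the other TRIB3 starts, and 3.13% of all 35116 windows of this length held one. The same search found TGATGAAAC from 68 to 60 bases upstream of a start of ASNS, the asparagine synthetase gene. DDIT4 had ACGTG from 125 to 121 bases upstream (18.5% of all windows held ACGTG on either strand) and CCAAT boxes beginning 108 and 75 bases upstream. SESN2 had CCAAT boxes beginning 151 and 86 bases upstream, and TRIB3 had no match to any of the 3 motifs (32.0% of windows held CCAAT). The motifs did not overlap each other, a match is a match of letters only, and elements outside these windows were not searched.

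TRIB3 was lower with siATF4 within every replicate number. Its log2 level was 5.19, 5.05 and 6.02 on siATF4 replicates 1, 2 and 3 and 5.79, 5.82 and 7.05 on siCTRL replicates 1, 2 and 3. Both replicate 3 arrays were the highest of their group, and siATF4 replicate 3 lay above siCTRL replicates 1 and 2, so the groups overlapped. Mean levels were 5.42 ± 0.53 with siATF4 and 6.22 ± 0.72 with siCTRL (SD, n = 3 each). The log2 difference was -0.80 (SE 0.41, 95% interval -1.77 to 0.17), which is 1.74-fold lower. The limma fit gave an unadjusted p of 0.0913 and 1.00 after adjustment over all genes, and the exact two-sided permutation p was 0.3, where 3 arrays against 3 cannot go below 0.1.

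Taken by replicate number, the TRIB3 differences were close to one another at -0.60, -0.77 and -1.03. Being lower in all 3 numbers was seen for 9.2% of all genes. Of the total spread of TRIB3 over the 6 arrays (its sum of squares), 60.5% lay between replicate numbers, 37.6% between groups and 1.82% in neither. With the numbers as a block the SE was accordingly 0.13 (95% interval -1.11 to -0.49), with an unadjusted limma p of 0.000876 and an adjusted p of 0.999. The labels state no pairing, so this block rests on the data and is uncertain for numbers 1 and 2. Without siATF4 replicate 1 the unblocked difference was -0.68, and without siCTRL replicate 3, whose value was 1.03 above the highest other array, it was -0.38.

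DDIT4 had the largest difference of the 3 genes, and 1 array supplied most of it. Its log2 level was 4.81, 8.22 and 7.19 on siATF4 replicates 1, 2 and 3 against 8.68, 8.27 and 8.23 on siCTRL replicates 1, 2 and 3. The siCTRL arrays were within 0.45 of each other, while the siATF4 arrays spanned 3.41. All siATF4 arrays were below all siCTRL arrays, as for 2.59% of all genes, but siATF4 replicate 2 missed the lowest control by only 0.01. Mean levels were 6.74 ± 1.75 with siATF4 and 8.39 ± 0.25 with siCTRL (SD, n = 3 each). The log2 difference was -1.66 (SE 0.79, 95% interval -3.54 to 0.23) or 3.15-fold lower. The unadjusted limma p was 0.0757, the adjusted p 1.00 and the exact two-sided permutation p 0.1, the smallest possible.

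By replicate number the DDIT4 differences were -3.87, -0.05 and -1.04, so that 1 pair showed almost none, and 38.0% of the spread lay in neither group nor number. With the replicate block the SE was 0.68, the unadjusted limma p 0.0532 and the adjusted p 0.999. On siATF4 replicate 1 DDIT4 stood 2.38 below the lowest other array, the 24th largest such gap among all genes on the array that stood apart. Without that array the log2 difference was -0.69 (SE 0.32), and the groups still did not overlap, which then held for 5.93% of all genes. Array weights gave -1.01. Whether the low DDIT4 value on that array belongs with its other outlying genes or with the ATF4 siRNA was not tested.

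SESN2 did not differ between the groups beyond its spread. Its log2 level was 6.67, 6.27 and 6.03 on siATF4 replicates 1, 2 and 3 and 6.21, 5.88 and 7.15 on siCTRL replicates 1, 2 and 3. The highest and the lowest array both belonged to siCTRL, and the siATF4 arrays lay between them. Mean levels were 6.32 ± 0.33 with siATF4 and 6.41 ± 0.66 with siCTRL (SD, n = 3 each). The log2 difference was -0.09 (SE 0.34, 95% interval -0.90 to 0.72), with an unadjusted limma p of 0.800, an adjusted p of 1.00 and an exact two-sided permutation p of 0.9. The interval includes a difference as large as those of ATF4 and TRIB3.

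The SESN2 mean joins opposite values: the differences by replicate number were 0.47, 0.39 and -1.12. Only 1.1% of its spread lay between the groups and 73.2% in neither group nor number, the largest such share of the 3 genes. With the replicate block the SE was 0.32, the unadjusted limma p 0.791 and the adjusted p 0.999. Without siATF4 replicate 1 the difference was -0.26, and without siCTRL replicate 3, the highest array, it turned to 0.28. It also turned, to 0.02, with array weights. In replicate numbers 1 and 2, where ATF4 differed by -0.94 and -0.76 and TRIB3 by -0.60 and -0.77, SESN2 was therefore higher with siATF4.

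**Figure D1:**
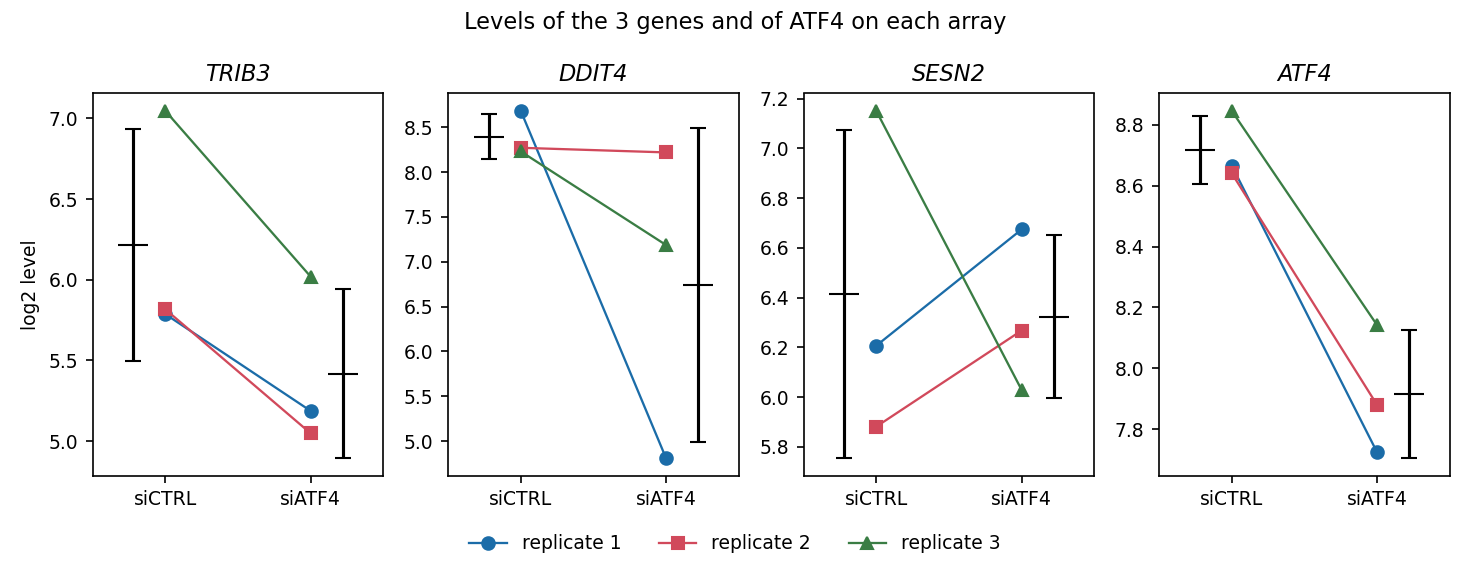
Log2 level (vertical axis, its own range in each panel) of TRIB3, DDIT4, SESN2 and ATF4 on the siCTRL and siATF4 arrays, with lines joining arrays of the same replicate number and black marks for the group mean ± SD (n = 3). The TRIB3 lines run nearly parallel downward, the DDIT4 lines fan out to 4.81 on siATF4 replicate 1, and the SESN2 lines cross.

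**Figure D2:**
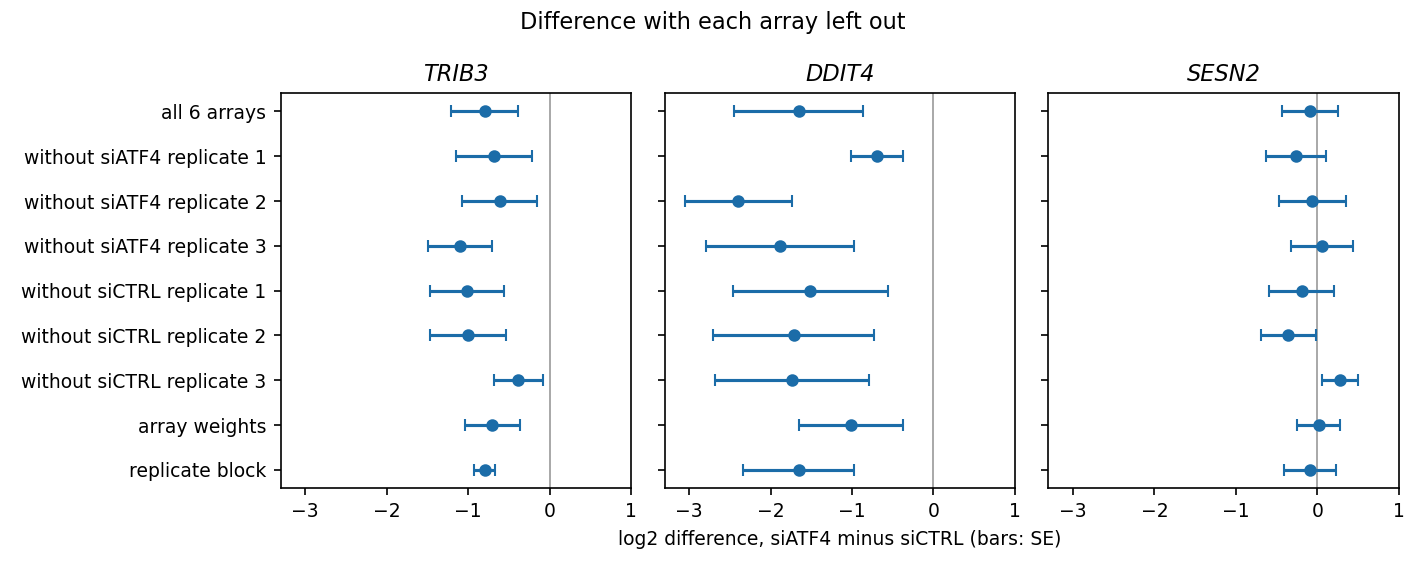
Log2 difference, siATF4 minus siCTRL, with bars of 1 SE, for TRIB3, DDIT4 and SESN2 with all 6 arrays, with each array left out, with array weights and with the replicate block. TRIB3 and DDIT4 stay below 0 in every row, DDIT4 between -2.40 and -0.69, and SESN2 lies on both sides of 0.

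Whether the 3 genes shifted by unequal amounts was tested on the gap between each pair of them within an array, 3 gaps in all. The gap of DDIT4 minus SESN2 was lower with siATF4 by a log2 difference of -1.57, or -0.43 without siATF4 replicate 1 (exact two-sided permutation p = 0.3 with all arrays). The gap of TRIB3 minus SESN2 was lower by -0.71, or -0.42 without that array (exact permutation p = 0.4), and that of DDIT4 minus TRIB3 by -0.86, or -0.01 without it (exact permutation p = 0.6). Adjusted over the 3 gaps each p was 0.6, so no unequal shift between the genes was shown, and 3 arrays against 3 cannot reach 0.05. The gap of TRIB3 over SESN2 was -0.42, -0.06 and -0.10 on the siCTRL arrays and -1.49, -1.22 and -0.01 on the siATF4 arrays, close to the controls on siATF4 replicate 3 alone.

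The genes whose pattern over the 6 arrays came nearest to each of the 3 were found among 7441 other genes brighter than the median gene, by the root mean square difference of log2 levels after centring each gene on its mean. This likeness is a description over 6 arrays that share their siRNA groups and replicate numbers. TRIB3 was nearest to ASNS, which makes asparagine, at 0.15 log2 units, and to PHGDH, the first enzyme of serine synthesis, at 0.23, against a spread of TRIB3 about its own mean of 0.65 on the same measure. MIS18A, a centromere protein gene (0.27), and PMAIP1, which encodes the pro-apoptotic protein NOXA (0.27), came next. ASNS read 5.91, 5.81 and 6.37 under siATF4 against 6.33, 6.24 and 7.63 under siCTRL, so that it shared with TRIB3 both the low siATF4 arrays and the high siCTRL replicate 3. By replicate number ASNS differed by -0.43, -0.42 and -1.26 and PHGDH by -0.17, -0.79 and -0.91.

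SESN2 was nearest to 2 other genes of amino acid metabolism: CTH, the cystathionine gamma-lyase that makes cysteine, at 0.12 log2 units, and SARS1, the seryl-tRNA synthetase, at 0.15, against a SESN2 spread of 0.43. CTH read 5.46, 4.74 and 4.77 under siATF4 against 5.0, 4.60 and 5.99 under siCTRL. Like SESN2 it was highest on siCTRL replicate 3 and next highest on siATF4 replicate 1, and its differences by number were 0.45, 0.14 and -1.22. SARS1 differed by 0.29, -0.03 and -0.95. The vesicle gene SYTL3 (0.17) and MAP1LC3B, which encodes the autophagosome protein LC3B (0.18), followed, with 0.54, 0.30 and -0.57 for SYTL3 and 0.14, 0.10 and -0.75 for MAP1LC3B.

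DDIT4 was nearest to 4 genes that were likewise low on siATF4 replicate 1, at 0.26 to 0.37 log2 units against a DDIT4 spread of 1.31. They were the adhesion receptor gene ADGRL3, the homeobox genes BARX1 and SHOX2, and the interferon-induced membrane protein gene IFITM1. On siATF4 replicate 1 they read 3.43, 4.01, 3.47 and 4.44, and on the other arrays none read below 5.62. Their differences in number 2 were 0.03, 0.01, 0.36 and -0.02. In number 3 they differed by -0.30, -0.31, -0.23 and -0.05, where DDIT4 differed by -1.04.

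**Figure D3:**
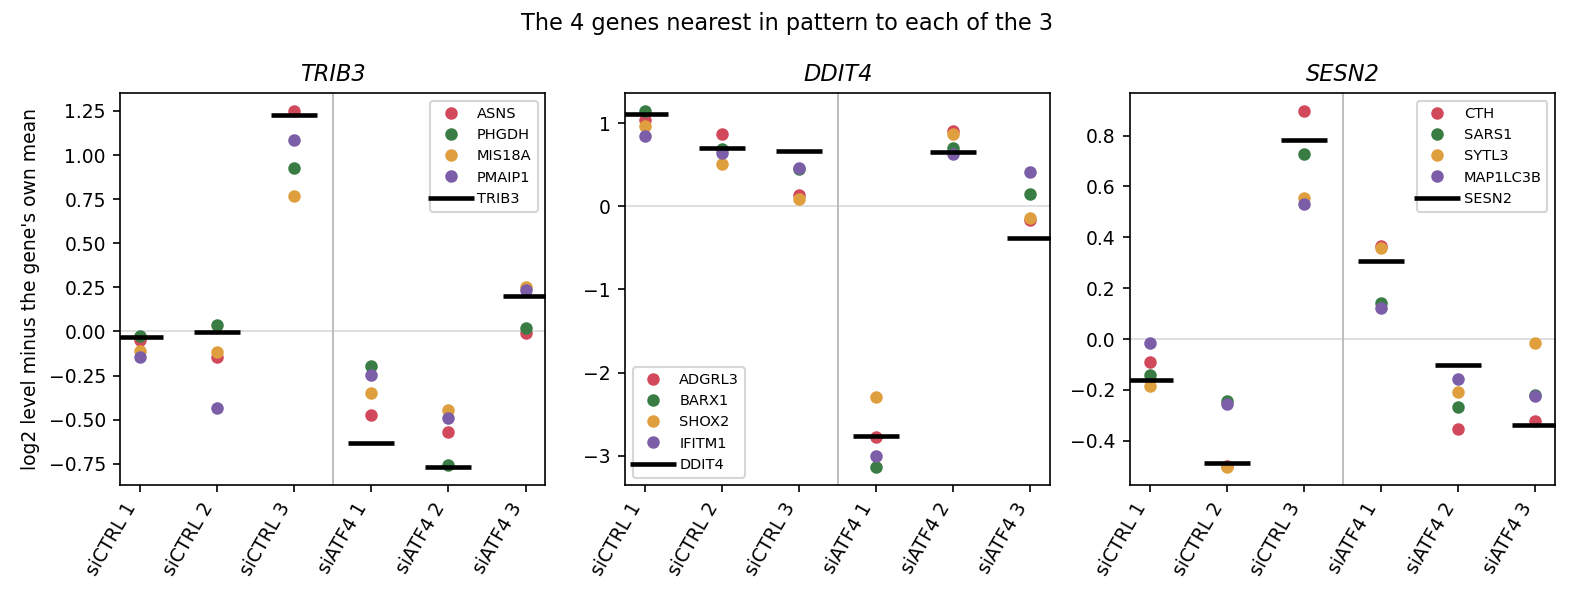
Log2 level minus the gene's own mean (vertical axis, its own range in each panel) on the 3 siCTRL and 3 siATF4 arrays, for TRIB3, DDIT4 and SESN2 (black bars) and the 4 genes nearest in pattern to each (points). ASNS and PHGDH track TRIB3, CTH and SARS1 track SESN2, and the DDIT4 panel is set by siATF4 replicate 1.

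Of the paralogues of the 3 genes all 6 had a named feature, 3 were lower and 3 higher with siATF4, with a median difference of 0.00 beside 0.01 for all genes, and none passed the test. Without siATF4 replicate 1, and likewise without siCTRL replicate 3, 0 were lower and 6 higher. TRIB1 and TRIB2 encode pseudokinases that drive degradation of the myeloid factor C/EBPα. TRIB1 read 5.43, 6.68 and 7.79 under siATF4 against 6.23, 6.80 and 7.59 under siCTRL, a log2 difference of -0.24 (SE 0.61). TRIB2 read 3.74, 4.71 and 6.66 against 4.06, 4.39 and 7.12, a difference of -0.15 (SE 1.00), and its other, dimmer feature differed by -0.10. Between replicate numbers lay 91.0% of the spread of TRIB1 and 98.0% of that of TRIB2, with replicate 3 high in both groups. The mean of the myeloid marker list was at its lowest on the same arrays. Its member MPO was at its highest of each group there (siATF4 10.4, siCTRL 10.2). The part of these markers in the TRIB1 and TRIB2 levels was not tested. For TRIB1, TRIB2 and STK40, a more distant relative (-0.01, SE 0.27), the sign turned with array weights or with single arrays left out.

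SESN1 and SESN3, the other sestrins, were higher with siATF4 in every replicate number, as 14.4% of all genes were. SESN1, a p53 and FOXO target, read 7.35, 6.97 and 6.51 under siATF4 against 6.86, 6.67 and 6.40 under siCTRL, a difference of 0.30 (SE 0.23) that was 0.10 without siATF4 replicate 1, 0.18 without siCTRL replicate 3 and 0.52 without siATF4 replicate 3. SESN3, a FOXO target, read 4.67, 3.70 and 4.74 against 3.55, 3.56 and 4.37, a difference of 0.55 (SE 0.34), or 0.88 without siATF4 replicate 2 and 0.36 without siATF4 replicate 3. The groups overlapped for both, and with the replicate block the unadjusted limma p was 0.0505 for SESN1 and 0.0374 for SESN3, each with an adjusted p of 0.999. SESN3 was under the array medians on siATF4 replicate 2 and on siCTRL replicates 1 and 2, so the size of its difference is uncertain. DDIT4L, the paralogue of DDIT4, stayed between 3.35 and 3.57 on all arrays, under the array medians, so a difference there may not be measurable.

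**Figure D4:**
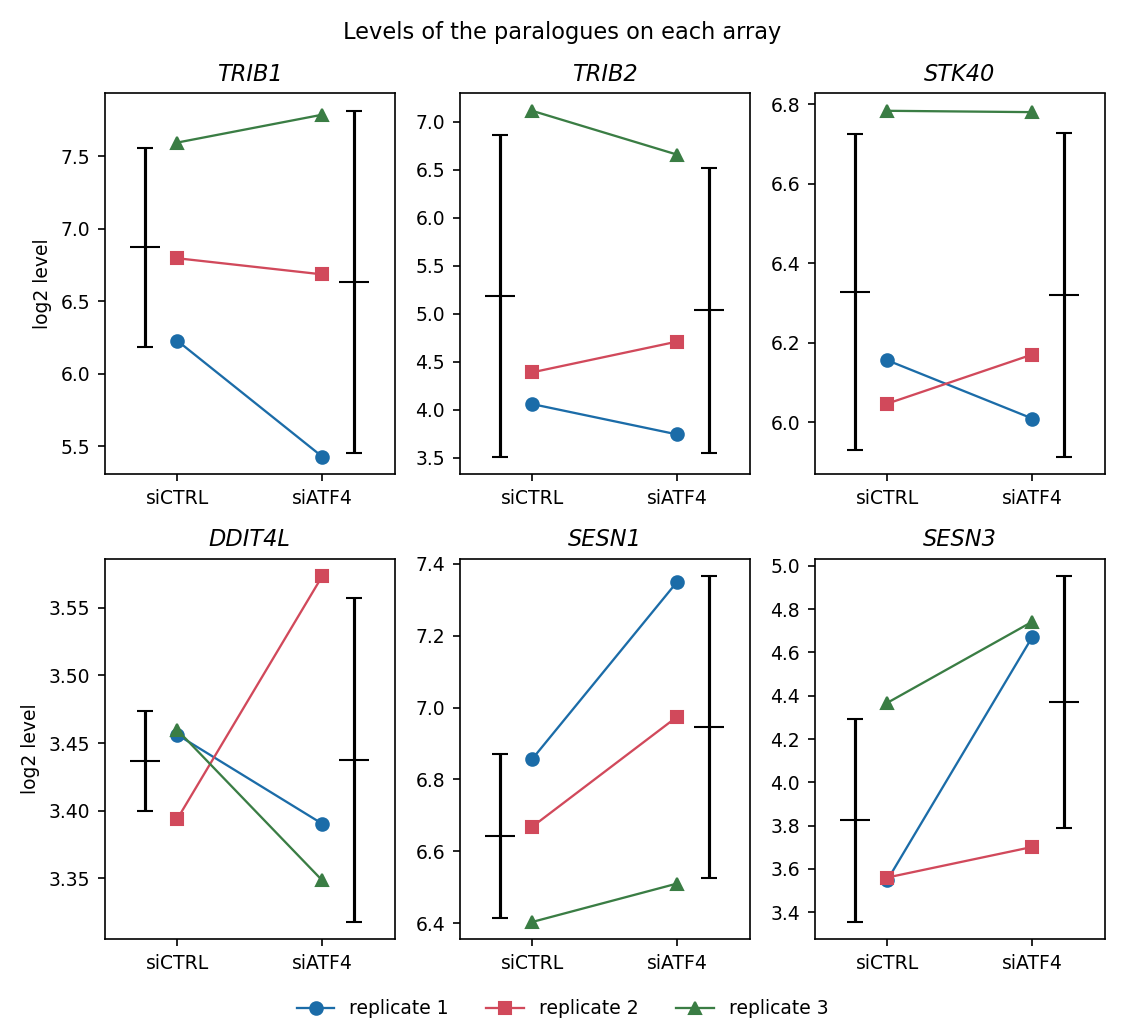
Log2 level (vertical axis, its own range in each panel) of TRIB1, TRIB2, STK40, DDIT4L, SESN1 and SESN3 on the siCTRL and siATF4 arrays, with lines joining arrays of the same replicate number and black marks for the group mean ± SD (n = 3). TRIB1, TRIB2 and STK40 are separated by replicate 3 rather than by siRNA, and the SESN1 and SESN3 lines run upward.

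The core of the pathway that the 3 inhibitors act on showed small differences. Of 107 genes in lists of lysosomal amino acid sensing, the TSC and mTOR complexes, PI3K and AKT, mTORC1 effectors and AMPK, 66 had a named feature. None was called, 21 were lower and 45 higher with siATF4, or 23 and 43 without siATF4 replicate 1. The median difference was 0.08, or 0.03 without siATF4 replicate 1, beside 0.01 for all genes, of which 6873 were lower and 8011 higher. The groups did not overlap for 4 of the 66, with siATF4 lower for 1 and higher for 3, where 2.59% and 3.3% of all genes did.

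Of the lysosomal amino acid sensing genes, which include the Rag GTPases and sensors other than SESN2, 16 of 20 were higher and 4 lower, with a median of 0.08. Leaving out siATF4 replicate 1 made that 13 and 7, with a median of 0.03. The largest differences were 0.30 (SE 0.17) for the GTPase RRAGA and 0.26 (SE 0.17) for FLCN, which acts on the Rag GTPases, or for FLCN 0.13 without siATF4 replicate 1 and 0.14 without siCTRL replicate 3. For RRAGA the value was 0.14 without siCTRL replicate 2. Of the TSC, RHEB and mTOR genes that DDIT4 acts on, 8 of 10 were higher, with TSC2 at 0.08, RHEB at -0.04 and MTOR at 0.17. The largest was DEPTOR, an inhibitor bound to mTOR, at 0.45 (SE 0.36), which was 0.03 without siATF4 replicate 1, and MAPKAP1, an mTORC2 subunit, was at 0.18, or 0.051 without siATF4 replicate 3 and 0.097 without siCTRL replicate 2.

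Around AKT, the kinase TRIB3 binds, 7 of 15 genes were lower and 8 higher (5 and 10 without siATF4 replicate 1), with AKT1 at -0.13 and AKT2 at 0.07. The receptor gene IGF1R had the largest difference, -0.83 (SE 0.75), all of it from siATF4 replicate 1: it read 3.39 there and 6.14 to 6.34 on the others, and the difference without that array was 0.14. The insulin receptor INSR was at -0.37 (SE 0.27), or -0.16 without siCTRL replicate 1 and -0.59 without siCTRL replicate 3. Among mTORC1 effectors 7 of 16 were lower, with a median of 0.05, but 9 were lower without siATF4 replicate 1 (median -0.03) and 11 without siCTRL replicate 3 (median -0.06). ULK1, the kinase that starts autophagy, read 4.63, 5.10 and 5.06 under siATF4 against 5.36, 5.30 and 5.44 under siCTRL. All its siATF4 arrays were below all controls, as for 2.59% of all genes. The difference was -0.43 (SE 0.15), and -0.29 without siATF4 replicate 1. The adaptor GRB10 was at -0.53 (SE 0.34), or -0.20 without that array. Of the AMPK and LKB1 list 5 genes were measured, those of LKB1 and its partners, and no AMPK subunit had a named feature. The LKB1 partner genes STRADA (0.27) and CAB39 (0.16) were above the controls on all siATF4 arrays, as 3.3% of all genes were. For STRADA, siATF4 replicate 2 (6.79) barely cleared siCTRL replicate 3 (6.78). STRADA was at 0.15 without siATF4 replicate 1 and CAB39 at 0.095 without siATF4 replicate 3.

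The integrated stress response itself and the other inputs to the 3 genes were read from fixed lists of genes. The stress response list holds kinases and transcription factors of that response together with other genes of it such as STC2. Of its 9 measured genes 7 were lower, with a median of -0.16 (-0.11 without siATF4 replicate 1). STC2, a secreted stress glycoprotein, was at -0.92 (SE 0.21) and the transcription factor ATF5 at -0.67 (SE 0.25). ATF5 was at 0.08 in replicate number 2, and at -0.45 without siATF4 replicate 1. Of the p53 targets 2 of 10 were lower (4 without siATF4 replicate 1 and 6 without siCTRL replicate 3), with GDF15, a stress cytokine that ATF4 also induces, at -0.52 (SE 0.24) and RRM2B, a ribonucleotide reductase subunit, at 0.33 (SE 0.44). GDF15 was at -0.28 without siCTRL replicate 3 and RRM2B at 0.03 without siATF4 replicate 1 or without siCTRL replicate 3. Hypoxia targets, which share an input with DDIT4, were lower in 5 of 12 cases with a median of 0.06. Leaving out siATF4 replicate 1 gave a median of 0.02, and leaving out siCTRL replicate 3 gave 0.01 with 6 of 12 lower. In this list VEGFA, the vascular growth factor, was at -0.80 (SE 0.27), and from -1.06 to -0.61 with single arrays left out. All its siATF4 arrays were below all controls, as for 2.59% of all genes, but by only 0.04. By replicate number VEGFA differed by -1.41, -0.15 and -0.84. The peptide hormone gene ADM was at -0.28, turning to 0.05 without siATF4 replicate 1.

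Glucocorticoid targets were lower in 3 of 10 cases with a median of 0.11. Without siATF4 replicate 1 that was 4 of 10 (median 0.03), and without siCTRL replicate 3 it was 5 of 10 (median 0.02). ERRFI1, a receptor feedback inhibitor, was at -0.53 (SE 0.35; -0.18 without that array), and TXNIP, which binds thioredoxin and the DDIT4 protein, was at 0.26 (SE 0.13; 0.16 without siCTRL replicate 3), with a dimmer second feature at -0.08. NRF2 targets were lower in 4 of 5 cases with a median of -0.19, and in 2 of 5 without siCTRL replicate 3 (median 0.05). The heme oxygenase gene HMOX1 spread from 4.27 to 7.99, both within siCTRL, with a difference of 0.27 (SE 0.98), and SRXN1, which repairs oxidised peroxiredoxins, was at -0.24 (0.13 without siCTRL replicate 3). Of 9 binding partners of the 3 proteins 5 were lower, 3 without siATF4 replicate 1 or without siCTRL replicate 3. KEAP1, the NRF2 inhibitor whose degradation SESN2 promotes, was at -0.35 (SE 0.15) and lower in every replicate number, as 9.2% of all genes were. Its groups overlapped, with 7.87 on siATF4 replicate 3 above 7.81 on siCTRL replicate 2. The kinase gene MAP3K11 was at 0.27 (SE 0.21), and at 0.15 without siATF4 replicate 1.

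**Figure D5:**
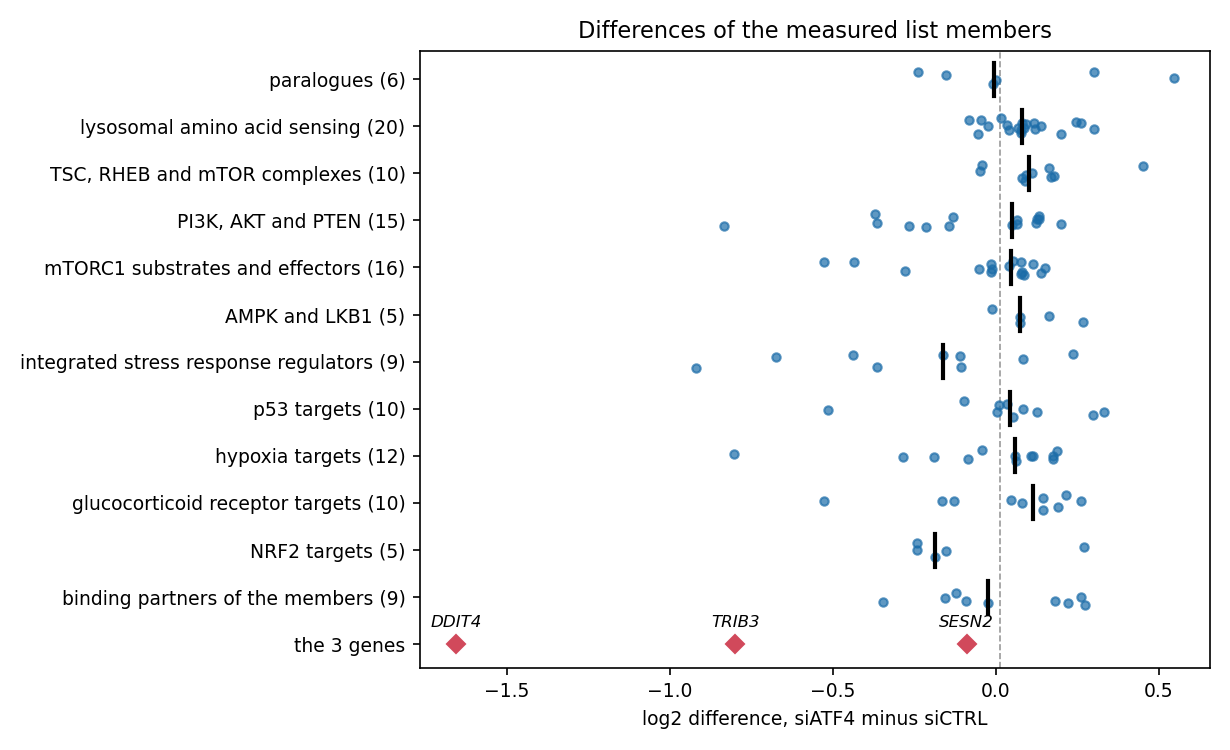
Log2 difference, siATF4 minus siCTRL (horizontal axis), of each measured member of the 12 fixed lists (points, number measured in brackets), with a black bar at the list median, a dashed line at the median of all genes (0.01) and red diamonds for TRIB3, DDIT4 and SESN2. Most list medians lie between 0 and 0.11, and those of the stress response and NRF2 lists are at -0.16 and -0.19.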

How the data were processed

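RNA of 6 samples was measured on Affymetrix arrays. The authors deposited a value table of 53617 features by 6 samples, taken here as log2 because its values run from 1.91 to 14.2. The submitters' processing notes name Partek; its version, background correction and normalization are not given in the sources used here. In GEO's platform annotation 16098 features carried 1 gene symbol, 0 several and 37519 none. All 16098 gene identifiers matched RefSeq's GRCh38.p14 gene table. The brightest feature stood for a gene, with no filter on dim genes.

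The groups were compared with limma 3.58.1 in R 4.3.3 (lmFit, eBayes, group as the only term), adjusted by Benjamini-Hochberg over 14884 genes at a threshold of 0.05. SE is limma's moderated standard error, and exact permutation tests over arrays were given for single values. The fit was checked on simulated data. Deviations from the group means correlated between same-numbered arrays at r = 0.20, 0.40 and 0.62 across genes. All were over 0.1, so the numbers were taken as pairs on the basis of the data. The labels do not state a pairing, and siATF4 replicate 2 and siCTRL replicate 1 correlated at 0.48, more than either did with its own number. The pairing is therefore uncertain for numbers 1 and 2. The fit with this block is printed for TRIB3, DDIT4, SESN2, SESN1 and SESN3. It changed the SE of other genes too, and no call.

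The 3 genes and the lists (272 genes, 158 measured) were chosen with earlier results of these data known. Named are the 3 genes, ATF4, all paralogues, the 2 largest differences of each list and the 4 nearest patterns per gene. MPO, CSF1R, FLT3, LYZ, CD14, NKG7, KRT18, VIM, EBF1, TSC2, RHEB, MTOR, AKT1 and AKT2 were named after their values were seen. Tried as alternatives were array weights, the replicate block, dropping the dimmest 33% of genes, equal array medians, a robust prior with a mean-variance trend, quantile normalization, the mean of a gene's features and each array left out. Fits without both arrays of a number, and list counts and overlap without single arrays, were chosen after seeing the data. Promoter sequences are RefSeq's, and all 3 genes matched that table.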

Additional observations from a re-analysis of the deposited data

How the results depend on the processing

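Under every alternative, 0 genes had an adjusted p below 0.05 in limma, and between 121 and 464 genes had an unadjusted p below 0.05. The replicate block changed no call. TRIB3 and DDIT4 kept their direction throughout. With each array left out TRIB3 ranged from -1.10 to -0.38, DDIT4 from -2.40 to -0.69 and SESN2 from -0.36 to 0.28, turning without siATF4 replicate 3 (0.06) or siCTRL replicate 3. SESN2 was also at 0.016 with array weights and at 0.43 without both arrays of number 3. The gap differences ranged from -2.34 to -0.43 (DDIT4 minus SESN2), -1.16 to -0.42 (TRIB3 minus SESN2) and -1.78 to -0.01 (DDIT4 minus TRIB3). With array weights TRIB1 turned to 0.14, TRIB2 to 0.37 and STK40 to 0.064. Of the 44 genes named by the fixed rule 14 turned under at least 1 alternative. With arrays left out the others ranged from -0.82 to 0.36 (TRIB1), -0.96 to 0.81 (TRIB2), -0.24 to 0.22 (STK40), -0.067 to 0.045 (DDIT4L), -1.34 to 0.14 (IGF1R), -0.54 to 0.046 (ADM), -0.51 to 1.35 (HMOX1), -0.48 to 0.13 (SRXN1), -0.64 to 0.12 (PMAIP1), -0.51 to 0.19 (CTH), -0.41 to 0.077 (SARS1), -0.14 to 0.39 (SYTL3) and -0.34 to 0.051 (MAP1LC3B). The cause of these turns was not tested. Dim genes such as DDIT4L are less certain, since signal over background was not analysed here.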
